A study of Macaca fascicularis with 6 samples.

Results

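Leukocyte adhesion molecules are the surface proteins by which white blood cells hold on to the vessel wall and to tissue cells. The 9 genes described here were found by their symbols in the gene lists of the deposited count tables, which name 28623 genes, 21095 of them with a symbol. They are ICAM1 (ENSMFAG00000026825), ICAM2 (ENSMFAG00000033733), VCAM1 (ENSMFAG00000028887), SELE (ENSMFAG00000001279), SELP (ENSMFAG00000036068), ITGB2 (ENSMFAG00000036141), ITGA4 (ENSMFAG00000038317), PECAM1 (ENSMFAG00000036717) and ACKR1 (ENSMFAG00000043335). Each symbol matched 1 gene, and all 9 were detected.

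The libraries came from lungs of 6 male cynomolgus monkeys of 3 to 5 years, 3 in the control group (1, 2 and 3) and 3 in the asthma group (8, 10 and 11), with 1 library per monkey. The asthma group had been sensitized by injection of antigen of the roundworm Ascaris suum (A. suum) and then challenged with it through the nose, and the control group had been given saline in the same way. Each captured RNA molecule carried a unique molecular identifier (UMI), and levels are given as UMIs of the gene for each 1000000 UMIs of the same cells (CPM). Statements that groups overlap or do not overlap use CPM, without the normalization factors (TMM) that the fitted fold changes use. A narrow gap in CPM need not hold with these factors. Total UMIs were 40556102, 33210436 and 32240293 in control 1, 2 and 3 and 41184329, 41489879 and 29014556 in asthma 8, 10 and 11, and the cells kept numbered 4339, 3200, 3902, 4136, 4620 and 4038. The model is an allergen model in monkeys, the tissue was dissociated with enzymes, red blood cells were lysed and dead cells were removed, so levels are those of the cells that came through these steps.

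In the classical scheme of leukocyte recruitment, selectins on activated endothelium let leukocytes roll, chemokines displayed on the vessel wall activate leukocyte integrins, and the integrins then bind immunoglobulin-type molecules such as ICAM1 and VCAM1, after which the cells cross the junctions between endothelial cells. ACKR1 binds chemokines without signalling through G proteins and carries them across the endothelium of venules. In the lung, leukocytes also leave the blood through capillaries, where selectins are scarce and the scheme holds less strictly.

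Cells were named from marker lists that hold none of the 9 genes, and the 9 genes were also kept out of the clustering. Some libraries stood apart and are named where a value rests on them. In control 3, 81.7% of the EC2-like cells (endothelial cells of larger vessels) lay in 1 sub-cluster, against 27.6% and 13.3% in control 1 and 2. The fibroblast-like cells of asthma 11 lay almost wholly in 1 sub-cluster, with 234 and 1 cells in the sub-clusters that hold 15 and 29 cells of control 1. Granulocyte-like sub-clusters were each mostly of a single library, and granulocyte-like cells had a median of only 1004 UMIs. Pairs of libraries shared 5 to 13 cell barcodes over the 15 pairs, where 4.18 to 6.42 were expected by chance. Each pair lay above its expected number, and the reason was not tested.

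Of the endothelial-like cells (1020 in all), 675 were capillary EC-like, led by HPGD, RAMP3 and ADGRL2, 302 were EC2-like, led by CPE and VWF, and 43 were lymphatic EC-like. The markers EGFL7 and RAMP2 stood at 2743 and 4227 CPM in endothelial-like cells and at 3.31 and 2.43 CPM in T and NK-like cells. The EC2-like cells fell into a sub-cluster led by TAC1, CPE and RSPO3 (187 cells) and a sub-cluster led by DKK2, BMX and HEY2 (115 cells). The make-up differed between the groups. Endothelial-like cells were 1.04%, 1.09% and 2.61% of the kept cells in control 1, 2 and 3 and 6.19%, 5.11% and 8.57% in asthma 8, 10 and 11, which is 1.58% ± 0.895 and 6.62% ± 1.77 (SD, n = 3; two-sided exact permutation p = 0.1, which is the lowest value this design can give). Most of this lay in the capillary EC-like cells, at 0.304% ± 0.0911 in the control group and 5.06% ± 1.54 in the asthma group (exact permutation p = 0.1). EC2-like cells stood at 1.08% ± 0.891 and 1.39% ± 0.380 (exact permutation p = 0.7), with overlapping groups. EC2-like cells thus made up 64.4%, 42.9% and 80.4% of the endothelial-like cells in control 1, 2 and 3 and 27.7%, 19.1% and 17.3% in asthma 8, 10 and 11.

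**Figure D1:**
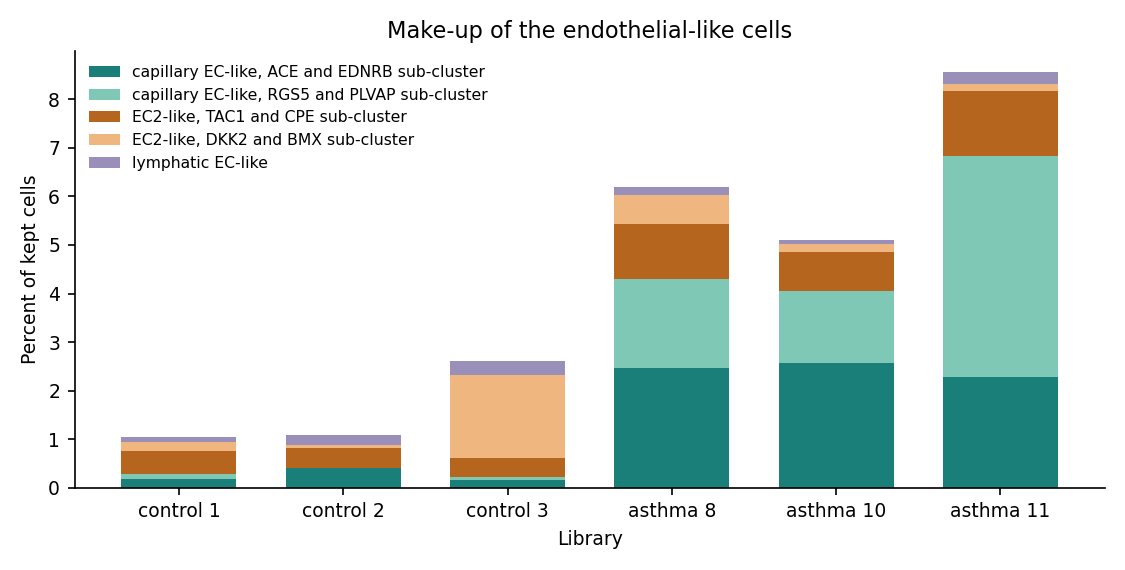
Endothelial-like cells as percent of all kept cells in each of the 6 libraries, 1 stacked bar per library, divided into 2 capillary EC-like sub-clusters, 2 EC2-like sub-clusters and lymphatic EC-like cells. The capillary EC-like parts make up most of the bars of asthma 8, 10 and 11, and the EC2-like sub-cluster with DKK2 and BMX is the largest part in control 3.

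Across cell types, the vessel genes SELP, SELE, ACKR1, ICAM2 and PECAM1 had their highest levels in endothelial-like cells, the integrin genes ITGB2 and ITGA4 had theirs in nonclassical monocyte-like cells, ICAM1 was highest in AT1-like cells (alveolar type 1, the thin epithelium of the air sacs) and VCAM1 in mesothelial-like and EC2-like cells. The comparison of the asthma with the control group was tested for 107 pairs of a gene and a cell type or the whole library, over 22 cell types, and 1 pair passed the test, namely SELP in endothelial-like cells. A further 14 pairs had an unadjusted p under 0.05 and did not pass. Pairs share cells, as EC2-like cells are part of all endothelial-like cells and of the whole library. The share of all genes under 0.05 is not given here, so this count is no result about the adhesion genes.

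**Figure D2:**
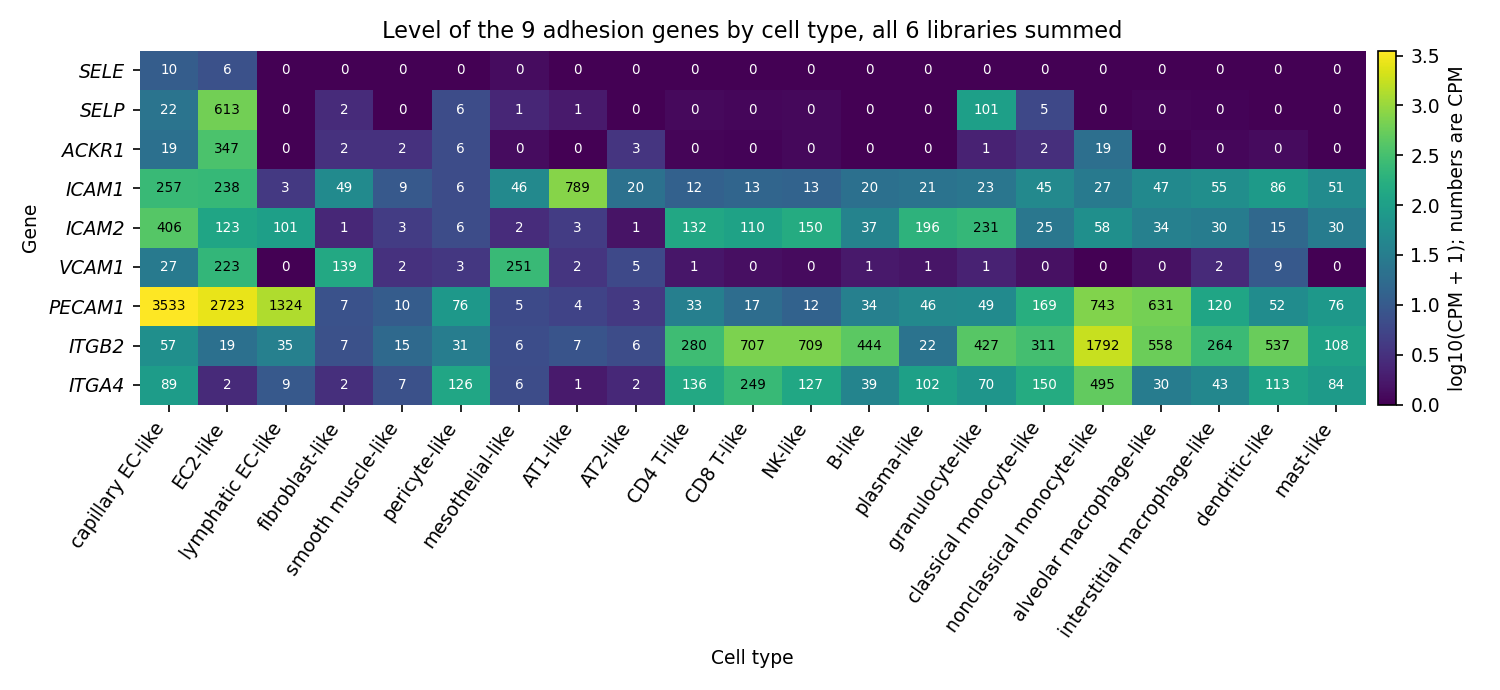
Level of the 9 genes by cell type, with all 6 libraries summed. The colour gives log10(CPM + 1) and the printed number gives CPM. SELP and ACKR1 stand out in EC2-like cells at 613 and 347 CPM, VCAM1 in mesothelial-like, EC2-like and fibroblast-like cells, and ITGB2 and ITGA4 in blood cell types. Colours compare cell types within a row.

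SELP encodes P-selectin, which endothelial cells and platelets store in granules and bring to the surface within minutes of activation. In all endothelial-like cells together it fell in the asthma group. It stood at 425, 528 and 467 CPM in control 1, 2 and 3, against 299, 168 and 150 CPM in asthma 8, 10 and 11. All asthma libraries lay below all control libraries. By the edgeR quasi-likelihood test the fitted level was 2.64-fold lower (log2 fold change -1.40, SE 0.269, adjusted p = 0.0195). In this comparison 5.99% of all 7748 genes tested passed, and 1 of the 8 adhesion genes tested did. SELP was also the only 1 of the 8 whose asthma libraries were all below the control libraries, as 7.37% of all genes were. The call was lost when control 1 (adjusted p = 0.0526), control 3 (0.0636), asthma 10 (0.0895) or asthma 11 (0.0632) was left out of the edgeR fit, with log2 fold changes from -1.77 to -1.20 over the 6 libraries left out in turn.

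Within the EC2-like cells, which held 72.3% of all SELP UMIs in 1.25% of the kept cells, SELP was not shown to differ. Its levels there were 558, 977 and 551 CPM in control 1, 2 and 3, against 689, 598 and 538 CPM in asthma 8, 10 and 11, and the groups overlapped (log2 fold change -0.25, edgeR adjusted p = 0.829). No adhesion gene of the 6 tested in EC2-like cells passed, where 0.0807% of all genes did. None of the 6 had all asthma libraries above all control libraries, as 10.6% of all genes had, or below them, as 4.57% had. A SELP UMI was found in 79.5% of EC2-like cells at a median of 5236.5 UMIs per cell, and in 0.0592% of T and NK-like cells at a median of 3660 UMIs. Both sub-clusters expressed it, with a UMI in 74.9% of cells of the TAC1 sub-cluster (median 4603 UMIs) and 87.0% of the DKK2 sub-cluster (median 6669 UMIs). Its level was 550 to 1045 CPM in the former and 374 to 559 CPM in the latter, higher in the TAC1 sub-cluster in each of the 6 libraries. Most libraries had few cells of the DKK2 sub-cluster, with 8, 2 and 67 in control 1, 2 and 3 and 24, 8 and 6 in asthma 8, 10 and 11. In capillary EC-like cells SELP was low, with 3.70% of cells. It had 0 UMIs in control 1 and 2, which allows up to 83.6 and 113 CPM, 142 CPM from 2 UMIs in control 3, and 1.94, 24.3 and 34.7 CPM in asthma 8, 10 and 11, so a difference between the groups was not detectable at this depth. If each endothelial subtype is held at its level over all libraries and only its share of the UMIs varies, the pooled endothelial-like level of SELP comes to a mean of 440 CPM in the control and 202 CPM in the asthma group, beside measured means of 473 and 206 CPM.

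**Figure D3:**
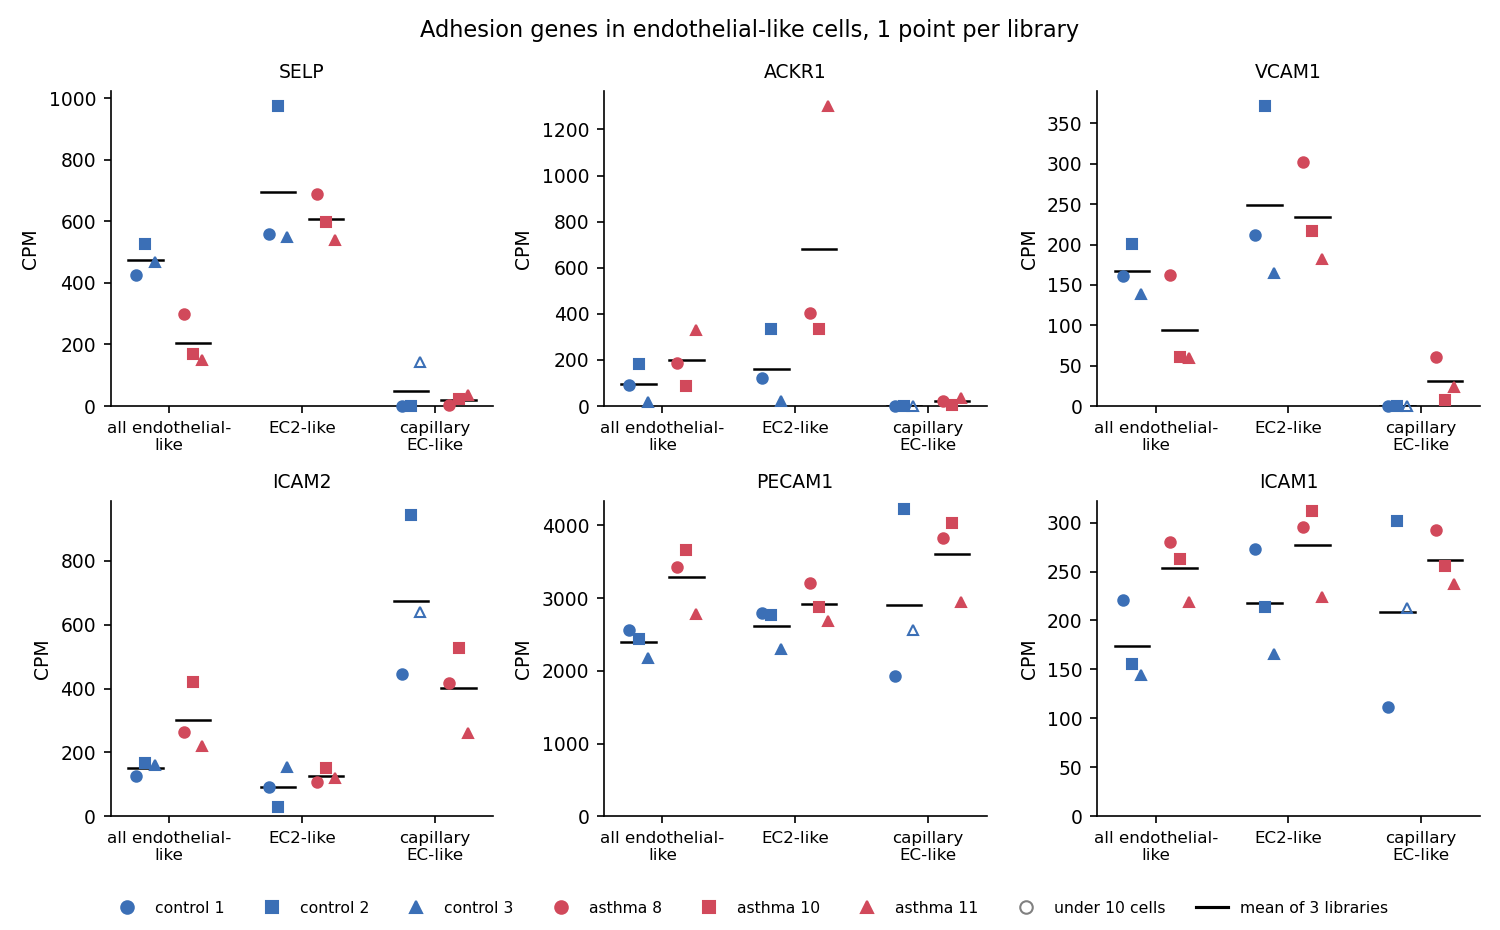
CPM of 6 of the genes in all endothelial-like, EC2-like and capillary EC-like cells, 1 point per library (control blue, asthma red), with lines at the mean of 3 libraries and open points for under 10 cells. For SELP the groups separate in all endothelial-like cells (control 425 to 528, asthma 150 to 299 CPM) and overlap in EC2-like cells.

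Outside the endothelium, SELP was seen in granulocyte-like cells, with 173 UMIs and a UMI in 7.40% of cells. Its level was 18.3, 63.0 and 0 CPM in control 1, 2 and 3, against 18.4, 188 and 165 CPM in asthma 8, 10 and 11. Asthma 10 and 11 were high and asthma 8 lay within the control libraries (log2 fold change 1.73, not passing the edgeR test, as none of the 3020 genes tested in granulocyte-like cells did). With no filter on low counts SELP passed (edgeR adjusted p = 0.00574), but the share of all genes passing at that setting is not given here. With a library left out its log2 fold change lay between 1.23 (without asthma 10) and 3.49 (without control 2). Platelets carry SELP too and can stick to leukocytes. Of 8 platelet genes, 3 had a UMI in granulocyte-like cells, 10 UMIs in all (PPBP 8, TUBB1 1 and TREML1 1). Of these UMIs 8 were in asthma 10 and 2 in asthma 11, the libraries with the high SELP, and 0 in the others. PF4, ITGA2B, GP9, GP1BA and GP1BB were at 0, in cells with a median of only 1004 UMIs. The part of platelets in the SELP level was not tested.

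SELE encodes E-selectin, which endothelial cells make anew after exposure to cytokines such as TNF and IL-1. It was close to the limit of detection, with 35 UMIs in all kept cells, 91.4% of them in endothelial-like cells. By library, endothelial-like cells held 0, 1 and 0 UMIs in control 1, 2 and 3 and 18, 2 and 11 UMIs in asthma 8, 10 and 11, from 45, 35, 102, 256, 236 and 346 cells. As levels these are 5.03 CPM in control 2, against 18.1, 2.18 and 10.6 CPM in asthma 8, 10 and 11. The zeros of control 1 and 3 allow up to 9.88 and 4.15 CPM, so no control library could be told from asthma 10 at this depth. SELE had too few UMIs to be tested. Of the 32 endothelial UMIs, 20 were in the capillary EC-like sub-cluster led by SEMA3G, CD36 and PLVAP and 12 in the EC2-like TAC1 sub-cluster.

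SELPLG, which encodes the main ligand of P-selectin, had only 44 UMIs in granulocyte-like cells (24.7 ± 16.7 CPM, SD, n = 6 libraries), its highest level, and FUT7, a fucosyltransferase needed to make selectin ligands, stood at 242 ± 105 CPM there.

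ACKR1 encodes the atypical chemokine receptor also known as the Duffy antigen, a marker of venules that red blood cells carry as well. EC2-like cells held 66.2% of its UMIs. All 642 of these lay in the TAC1 sub-cluster, where 50.3% of cells had a UMI, and the 115 cells of the DKK2 sub-cluster had 0. In T and NK-like cells 0.0493% of cells had an ACKR1 UMI. Its level in EC2-like cells was 121, 335 and 19.7 CPM in control 1, 2 and 3, against 405, 334 and 1304 CPM in asthma 8, 10 and 11. The lowest value was that of control 3, whose EC2-like cells were mostly of the DKK2 sub-cluster, and the highest that of asthma 11. Control 2 and asthma 10 were alike, so the groups touched, and the change did not pass (log2 fold change 2.27, SE 0.838, edgeR adjusted p = 0.486). Without asthma 11 the log2 fold change was 1.41 and without control 2 it was 3.35, and with no filter on low counts it passed (edgeR adjusted p = 1.69e-10). Within the TAC1 sub-cluster alone, a comparison added after seeing the data, the levels were 163, 388 and 220 CPM in control 1, 2 and 3, against 603, 424 and 1397 CPM in asthma 8, 10 and 11. There every asthma library was above every control library, from 13 to 54 cells per library, as was so for 8.34% of all genes tested in the sub-cluster (ACKR1 and ICAM2 among the 6 adhesion genes) and the reverse for 4.26%. The change still did not pass the edgeR test (log2 fold change 1.61, SE 0.459, adjusted p = 0.323). Over all endothelial-like cells ACKR1 stood at 92.2, 181 and 16.6 CPM in control 1, 2 and 3, against 186, 87.4 and 328 CPM in asthma 8, 10 and 11. The groups overlapped and the change did not pass (log2 fold change 1.08, edgeR adjusted p = 0.3896), ranging from 0.40 to 1.87 with a library left out. The group means were 96.6 and 201 CPM. With the level of each subtype held fixed and only its share of the UMIs varying, these means came to 249.9 and 119 CPM, the other way round.

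A VCAM1 UMI was found in 63.8% of the EC2-like cells with an ACKR1 UMI and in 33.2% of the rest, with median depths of 5709 and 4843.5 UMIs. Within the TAC1 sub-cluster the shares were 63.8% and 34.4%, at 5709 and 3744 UMIs. The part of depth in this gap was not tested. The red blood cell gene HBB had 3 UMIs in EC2-like cells. A low level of ACKR1 was seen in monocyte-like cells, which held 181 UMIs, 18.7% of all. Of these, 73 lay in nonclassical monocyte-like cells, at 4.31 to 26.6 CPM by library. Classical monocyte-like cells stood at 2.01 CPM over all libraries, and most of the rest lay in monocyte-like cells named as neither. HBB had 1158 UMIs in monocyte-like cells and 1141 in the nonclassical ones, 1137 of the latter in control 2 and 0 to 2 in each other library. Over all monocyte-like cells ACKR1 stood at 4.66, 6.78 and 6.93 CPM in control 1, 2 and 3, against 15.1, 7.61 and 15.2 CPM in asthma 8, 10 and 11, which did not pass (log2 fold change 1.02, edgeR adjusted p = 0.615). The part of carried-over red cell RNA in these values was not tested.

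ICAM1 is the inducible ligand of the ITGB2 integrins and is known to be plentiful on alveolar type 1 cells in the healthy lung. AT1-like cells had its highest level, at 828, 1648 and 1532 CPM in control 1, 2 and 3, against 688, 698 and 917 CPM in asthma 8, 10 and 11, with a UMI in 77.3% of cells (median 3795 UMIs), against 4.38% of T and NK-like cells. Control 2 and 3 had only 4 and 3 AT1-like cells, so no test was made in AT1-like cells. The next levels were those of capillary EC-like and EC2-like cells, at 240 ± 76.4 CPM (SD, n = 5 libraries) and 247 ± 55.6 CPM (n = 6), which overlapped each other and lay below AT1-like cells (783 ± 110 CPM, n = 4). In all endothelial-like cells ICAM1 stood at 221, 156 and 144 CPM in control 1, 2 and 3, against 280, 263 and 219 CPM in asthma 8, 10 and 11. The lowest asthma library lay just under the highest control library, and the change did not pass (log2 fold change 0.35, edgeR adjusted p = 0.387). In the asthma libraries ICAM1 was higher in the TAC1 than in the DKK2 sub-cluster of EC2-like cells, at 382, 374 and 235 CPM against 120, 81.9 and 62.3 CPM in asthma 8, 10 and 11. In control 1, 2 and 3 the levels were 273, 205 and 275 CPM against 271, 272 and 155 CPM. The DKK2 values come from 8, 2, 67, 24, 8 and 6 cells in control 1, 2 and 3 and asthma 8, 10 and 11.

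Macrophage-like cells held 37.4% of the ICAM1 UMIs. Their level was 34.4, 44.1 and 35.3 CPM in control 1, 2 and 3, against 81.5, 67.7 and 47.1 CPM in asthma 8, 10 and 11 (log2 fold change 0.67, SE 0.229, edgeR adjusted p = 0.828). By CPM all asthma libraries lay above all control libraries, as for 11.8% of all genes tested there and the reverse for 2.01%. With the TMM factors of the fit (0.916 in control 2, 1.06 in asthma 11), asthma 11 fell below control 2 and the groups overlapped. None of the 10500 genes tested in macrophage-like cells passed. In interstitial macrophage-like cells ICAM1 was 43.4, 43.4 and 48.9 CPM in control 1, 2 and 3, against 64.0, 61.5 and 55.1 CPM in asthma 8, 10 and 11, without overlap in CPM. Of the 5 adhesion genes tested in these cells, ICAM1, ITGB2 and PECAM1 had all asthma libraries above all control libraries by CPM, beside 6.97% of all genes tested there. None had them all below (3.11% of all genes). For PECAM1 this held in CPM only. With the TMM factors of the fit (0.912 in control 2, 0.992 in asthma 10), asthma 10 fell below control 2.

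ICAM2 is a constitutive ITGB2 ligand of resting endothelium, lymphocytes and platelets. It was highest in capillary EC-like cells at 519 ± 256 CPM (SD, n = 5 libraries). The capillary sub-cluster led by ACE, EDNRB and HPGD stood at 543, 688 and 414 CPM in asthma 8, 10 and 11, above the SEMA3G sub-cluster at 210, 192 and 186 CPM. Capillary EC-like cells of the control group numbered only 9 to 13 per library, and their levels (446, 943 and 639 CPM) spread over those of the asthma group (417, 527 and 260 CPM). In all endothelial-like cells ICAM2 stood at 125, 166 and 162 CPM in control 1, 2 and 3, against 264, 422 and 219 CPM in asthma 8, 10 and 11. The groups did not overlap, but the change did not pass (log2 fold change 0.79, SE 0.274, edgeR adjusted p = 0.120). By CPM, ICAM2 and PECAM1 were the 2 of 8 adhesion genes with all asthma libraries above all control libraries in endothelial-like cells. The same held for 23.3% of all genes tested. With the subtypes held at fixed levels, the pooled means of ICAM2 came to 144 and 304 CPM, beside measured means of 151 and 301 CPM. In EC2-like cells as a whole the ICAM2 change was 0.19 on the log2 scale (edgeR adjusted p = 0.922). In the TAC1 sub-cluster, taken alone after seeing the data, it was 46.5, 21.5 and 55.02 CPM in control 1, 2 and 3, against 93.6, 127 and 111 CPM in asthma 8, 10 and 11, without overlap (log2 fold change 1.34, SE 0.408, edgeR adjusted p = 0.359).

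Beyond the endothelium, ICAM2 was spread over lymphoid, granulocytic and macrophage-like cells. Granulocyte-like cells stood at 209 ± 59.7 CPM, plasma-like cells at 218 ± 68.6 CPM (n = 5 libraries), NK-like cells at 155 ± 27.7 CPM and CD4 T-like cells at 134 ± 31.8 CPM, and neighbours in this order overlapped. T and NK-like cells, which are 41.8% of the kept cells, held 46.9% of its UMIs. Macrophage-like cells, 14.2% of the kept cells, held 19.4%, and monocyte-like cells, 7.90% of the kept cells, held 5.45%.

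VCAM1 is the main ligand of the ITGA4 integrins and is known from cytokine-activated endothelium and from stromal and mesothelial cells. Mesothelial-like cells held 50.5% of its UMIs, with 242, 262 and 172 CPM in control 1, 2 and 3, against 239, 304 and 61.0 CPM in asthma 8, 10 and 11, and overlapping groups. A sub-cluster of mesothelial-like cells led by CXCL10, CXCL1 and IRF1 (110 cells, 74 of them from asthma 8) had a UMI in 65.5% of cells. Another led by NR4A1 and IL6 (94 cells, 85 from asthma 10) had a UMI in 64.9%. The share was 49.8% over all mesothelial-like cells (median 9847 UMIs) and 0.138% in T and NK-like cells.

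EC2-like cells had VCAM1 at 242 ± 79.7 CPM (SD, n = 6 libraries), a level that could not be told from the 213 ± 86.1 CPM of mesothelial-like cells. By library it was 212, 372 and 164 CPM in control 1, 2 and 3, against 303, 217 and 182 CPM in asthma 8, 10 and 11. The groups overlapped (log2 fold change -0.09). In all endothelial-like cells together VCAM1 stood at 161, 201 and 138 CPM in control 1, 2 and 3, against 162, 60.1 and 59.0 CPM in asthma 8, 10 and 11, where asthma 8 lay within the control libraries (log2 fold change -1.004, SE 0.383, edgeR adjusted p = 0.152). Without asthma 8 this change passed (adjusted p = 0.0162). At fixed subtype levels the pooled means came to 162 and 85.7 CPM, beside measured means of 167 and 93.7 CPM.

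In capillary EC-like cells VCAM1 had 0 UMIs in each control library, which allows up to 83.6, 113 and 213 CPM, and 60.1, 7.58 and 23.6 CPM in asthma 8, 10 and 11, so no difference was detectable. The test of whether the asthma change differed between capillary EC-like and EC2-like cells, over the 5 libraries with at least 10 cells of both (without control 3), passed for none of the 8 adhesion genes tested and for 0.114% of all genes. ICAM2 had the smallest p of the 8 there (difference in log2 fold change -1.30, SE 0.553, edgeR adjusted p = 0.608).

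Fibroblast-like cells were the third site of VCAM1. The level was 50.3, 36.4 and 40.4 CPM in control 1, 2 and 3, against 427, 280 and 68.9 CPM in asthma 8, 10 and 11. All asthma libraries lay above all control libraries, asthma 11 only narrowly. The fitted change was 5.77-fold (log2 fold change 2.53, SE 0.565) and did not pass the edgeR test (adjusted p = 0.101). Without asthma 8 the log2 fold change was 1.82 (edgeR adjusted p = 0.148). Without asthma 11 it was 3.02 and passed (adjusted p = 0.00127), and by DESeq2 the change passed with all libraries (adjusted p = 2.79e-04). The shares of all genes passing under these settings are not given here, so these passes are no result about VCAM1 in particular. The sub-clusters of fibroblast-like cells differed in VCAM1. The sub-cluster led by C3, CCL11 and PTGDS held 531 of the 561 fibroblast UMIs, at 173, 75.2 and 112 CPM in control 1, 2 and 3, against 607, 406 and 69.0 CPM in asthma 8, 10 and 11. There asthma 11 was the lowest library of all 6, so the groups overlapped (log2 fold change 1.64, SE 0.630, edgeR adjusted p = 0.997). The sub-cluster led by CLEC3B, MFAP5 and SFRP2 had 30 UMIs and 0 to 32.7 CPM. It held 29, 50 and 127 fibroblast-like cells in control 1, 2 and 3 and 22, 18 and 1 in asthma 8, 10 and 11.

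ICAM1 was the other adhesion gene tested in fibroblast-like cells. It stood at 23.2, 20.8 and 19.7 CPM in control 1, 2 and 3, against 137, 33.2 and 41.8 CPM in asthma 8, 10 and 11, with asthma 8 far above the rest (log2 fold change 1.68, SE 0.539, edgeR adjusted p = 0.280). Without asthma 8 the log2 fold change was 0.70 and without asthma 11 it was 2.05. With no filter on low counts ICAM1 passed (edgeR adjusted p = 6.17e-05), but the share of all genes passing at that setting is not given here. Both genes had all asthma libraries above all control libraries, as 12.3% of all genes tested in these cells had, and 3.76% had them all below. By the threshold on adjusted p and fold, 0.376% of the genes passed.

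**Figure D4:**
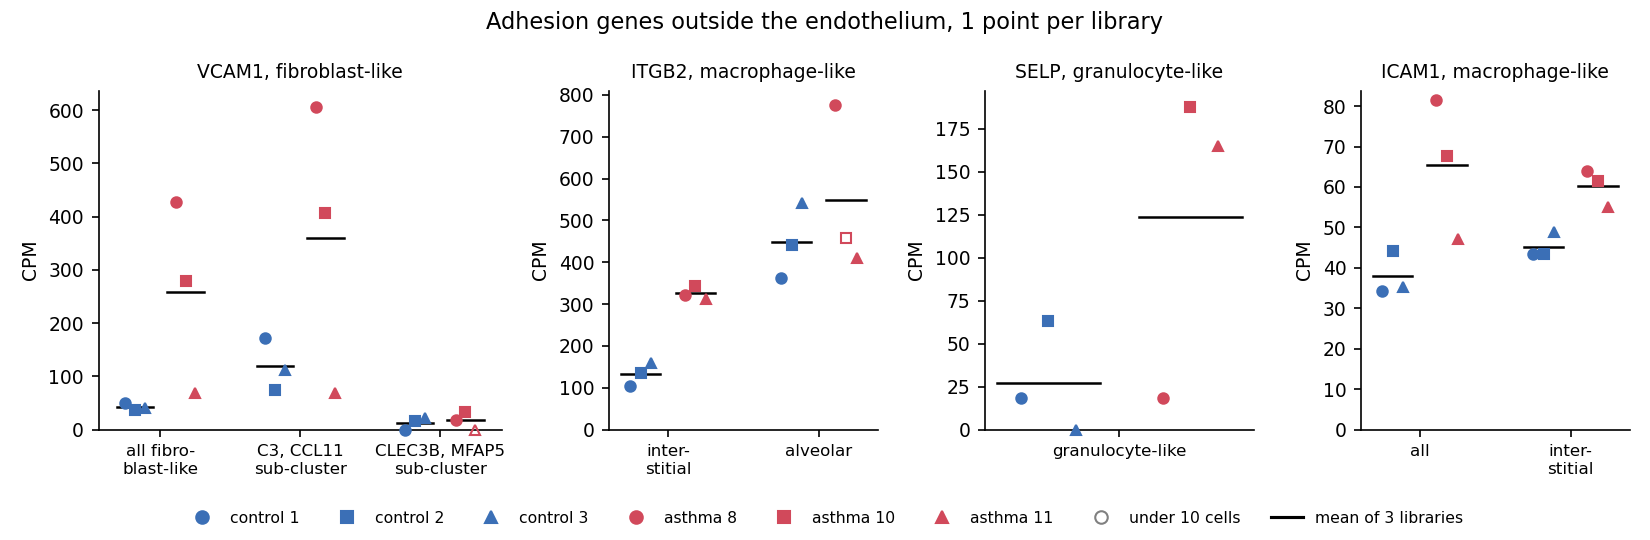
CPM of VCAM1, ITGB2, SELP and ICAM1 in cells other than endothelial-like ones, 1 point per library (control blue, asthma red), with lines at the mean of 3 libraries and open points for under 10 cells. VCAM1 in the C3 and CCL11 fibroblast-like sub-cluster spans 69.0 to 607 CPM among the asthma libraries, and ITGB2 in interstitial macrophage-like cells separates the groups (control 105 to 158, asthma 313 to 342 CPM).

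PECAM1 joins endothelial cells at their borders and is engaged when leukocytes cross between them. It was found in 97.4% of endothelial-like cells, and in 7.63% of T and NK-like cells. Its level in endothelial-like cells was 2556, 2443 and 2177 CPM in control 1, 2 and 3, against 3433, 3656 and 2774 CPM in asthma 8, 10 and 11. The groups did not overlap in CPM, but the fitted change was small (log2 fold change 0.26, edgeR adjusted p = 0.471). With the TMM factors of that fit (0.922 in control 1, 1.09 in asthma 11), asthma 11 fell below control 1 and the groups overlapped. The ACE sub-cluster of capillary EC-like cells had the highest levels, 4339, 4849 and 4003 CPM in asthma 8, 10 and 11, against 2993, 2316 and 2434 CPM in the SEMA3G sub-cluster. EC2-like cells stood at 2773 ± 295 CPM (SD, n = 6 libraries) and lymphatic EC-like cells at 1398 ± 35.4 CPM (n = 2). At fixed subtype levels the pooled means were 2523 and 3178 CPM, beside measured means of 2392 and 3288 CPM.

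Macrophage-like cells held 52.1% of PECAM1 UMIs and endothelial-like cells 24.7%. Nonclassical monocyte-like cells stood at 707 ± 246 CPM and alveolar macrophage-like cells at 595 ± 139 CPM (n = 5 libraries), with overlapping ranges, and classical monocyte-like cells at 181 ± 35.0 CPM. In interstitial macrophage-like cells PECAM1 was 71.3, 112 and 100 CPM in control 1, 2 and 3, against 200, 116 and 150 CPM in asthma 8, 10 and 11 (log2 fold change 0.64, SE 0.239, edgeR adjusted p = 0.920). Among T and NK-like cells the gene was concentrated in a sub-cluster led by TCF7, LEF1 and SOX4 (532 cells), with a UMI in 38.9% of its cells, a median of 4073.5 UMIs per cell and 95.6 to 166 CPM by library. In NK-like cells it stood at 6.38, 10.6 and 7.25 CPM in control 1, 2 and 3, against 12.8, 9.14 and 40.6 CPM in asthma 8, 10 and 11, where asthma 11 alone was high.

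ITGB2 is the beta subunit of the leukocyte integrins LFA-1 and Mac-1, which bind ICAM1 and ICAM2. Nonclassical monocyte-like cells had the highest level, 1458, 1932 and 1868 CPM in control 1, 2 and 3, against 1916, 1716 and 1799 CPM in asthma 8, 10 and 11, with a UMI in every cell. No library of another cell type reached that range. NK-like cells (736 ± 106 CPM), CD8 T-like cells (659 ± 116 CPM), proliferating T and NK-like cells (607 ± 82.5 CPM), alveolar macrophage-like cells (507 ± 165 CPM, n = 5 libraries), dendritic-like cells (484 ± 97.1 CPM), B-like cells (458 ± 78.2 CPM) and granulocyte-like cells (406 ± 89.1 CPM) followed, each overlapping the next. EC2-like cells stood at 4.14 to 46.5 CPM.

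The widest gap of ITGB2 between the groups was in interstitial macrophage-like cells. The level was 105, 135 and 158 CPM in control 1, 2 and 3, against 323, 342 and 313 CPM in asthma 8, 10 and 11, without overlap. The fitted change was 2.37-fold (log2 fold change 1.25, SE 0.178) and missed the threshold after adjustment over 7930 genes (edgeR adjusted p = 0.134), where 1 gene, 0.0126%, passed. DESeq2 gave an adjusted p of 1.22e-05, but the share of all genes that it called in these cells is not given here. In alveolar macrophage-like cells the groups overlapped, at 363, 442 and 541 CPM in control 1, 2 and 3, against 777, 457 and 411 CPM in asthma 8, 10 and 11, the value of asthma 10 from only 7 cells.

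ITGA4 is the alpha subunit of VLA-4, the receptor of VCAM1 on lymphocytes, monocytes and eosinophils. Nonclassical monocyte-like cells were again highest, at 493 ± 73.2 CPM (SD, n = 6 libraries), and CD8 T-like cells followed at 238 ± 43.8 CPM, with no overlap between them. Classical monocyte-like, CD4 T-like and NK-like cells stood at 145 ± 36.2, 136 ± 21.2 and 126 ± 32.2 CPM and overlapped. In plasma-like cells ITGA4 was 116, 149 and 208 CPM in control 1, 2 and 3, against 83.5, 95.5 and 61.4 CPM in asthma 8, 10 and 11 (log2 fold change -0.82, edgeR adjusted p = 0.988), from 8 to 39 cells a library. Within the endothelium it lay mostly in the ACE sub-cluster of capillary EC-like cells, which held 168 of the 182 endothelial-like UMIs. There 35.3% of cells had a UMI, at 203, 123 and 103 CPM in asthma 8, 10 and 11. The control libraries had 598, 566 and 0 CPM from only 8, 13 and 6 such cells. Over all capillary EC-like cells ITGA4 was 279, 566 and 0 CPM in control 1, 2 and 3, against 132, 87.9 and 34.7 CPM in asthma 8, 10 and 11. Control 3, with 9 of these cells, entered no test, and the other control libraries had 12 and 13 cells (log2 fold change -2.001, SE 0.588, edgeR adjusted p = 0.569).

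Of the partner subunits, ITGAM (with ITGB2, Mac-1) was highest in granulocyte-like cells at 236 ± 71.5 CPM, ITGB7 (with ITGA4, an integrin of gut homing) in NK-like cells at 161 ± 42.5 CPM and ITGAX, which also pairs with ITGB2, in nonclassical monocyte-like cells at 53.7 ± 9.32 CPM. In T and NK-like cells 5 adhesion genes were tested, and in monocyte-like cells 6. None passed in either, as none of the 10449 and 7890 genes tested there did.

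**Figure D5:**
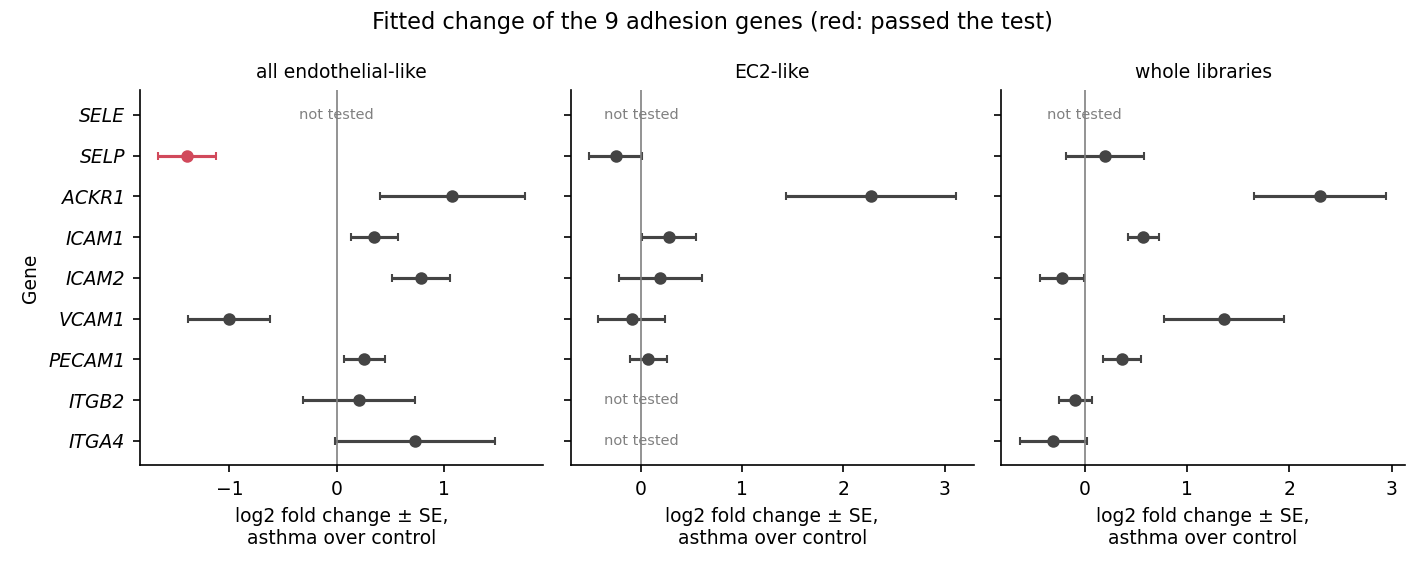
Fitted log2 fold change, asthma over control, with its SE (bars) by edgeR, for those of the 9 genes that could be tested: 8 in all endothelial-like cells, 6 in EC2-like cells and 8 in whole libraries. SELE had too few UMIs. Red marks the change that passed, SELP in endothelial-like cells at -1.40. ACKR1 is at 2.27 in EC2-like cells and 2.301 in whole libraries with wide errors.

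The wider pathway was followed in endothelial-like cells by lists of related genes. There 5.99% of all genes passed. Of the selectin ligand list 7 of 14 genes were tested and 2 passed. CD44, which binds hyaluronan and E-selectin, rose (9.88, 30.2 and 12.5 CPM in control 1, 2 and 3, against 55.3, 91.8 and 76.4 CPM in asthma 8, 10 and 11, log2 fold change 2.07, edgeR adjusted p = 0.0170). CD34, a sialomucin of vascular endothelium, fell (761, 659 and 979 CPM in control 1, 2 and 3, against 519, 522 and 299 CPM in asthma 8, 10 and 11, log2 fold change -1.05, edgeR adjusted p = 0.0496). The CD44 call was lost without control 1, control 3, asthma 10 or asthma 11 (edgeR adjusted p = 0.0554 to 0.101). That of CD34 was lost without any 1 library other than control 2 (0.0720 to 0.165), and also with at least 200 genes a cell, at resolution 1.6, with the adhesion genes among the clustering genes and without TMM factors (0.0501 to 0.0976). The median log2 fold change of the list was -0.29, beside 0.02 over all genes tested. In EC2-like cells, a smaller part of the endothelial-like cells in the asthma than in the control libraries, 4 genes of the list were tested, 0 passed and the median was -0.05, with CD34 at -0.76 (edgeR adjusted p = 0.413).

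Of 11 integrin subunits 6 were tested. ITGA9, which pairs with ITGB1, fell from 109, 116 and 99.7 CPM in control 1, 2 and 3 to 53.3, 41.5 and 49.3 CPM in asthma 8, 10 and 11 (log2 fold change -1.35, edgeR adjusted p = 0.0130), a call lost without asthma 10 (adjusted p = 0.0539). ITGA6 and ITGA1, with log2 fold changes of 1.002 and 1.46, did not pass (edgeR adjusted p = 0.0611 and 0.0725). The median of the list was 0.08. In EC2-like cells 4 were tested, 0 passed and ITGA9 had a log2 fold change of -0.17 (edgeR adjusted p = 0.900).

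Among immunoglobulin-type and junctional molecules 10 of 17 genes were tested and 0 passed, 8 of the 10 with a positive and 2 with a negative fold change and a median of 0.50. The smallest p values were those of PLVAP, which forms the diaphragms of endothelial pores (log2 fold change 2.88, edgeR adjusted p = 0.0656), and ESAM, a tight junction molecule (0.60, adjusted p = 0.0764). In EC2-like cells PLVAP rose, at 0, 0 and 1.64 CPM in control 1, 2 and 3, against 69.8, 69.4 and 195 CPM in asthma 8, 10 and 11 (edgeR adjusted p = 0.0492, the zeros allowing up to 12.99 and 27.9 CPM), as 1 of 3 genes called in these cells. This call was lost with each of the 6 libraries left out in turn (edgeR adjusted p = 0.0763 to 0.129), with at least 200 genes a cell, at resolution 1.6, with a mitochondrial maximum of 10%, without the highest doublet scores and without TMM factors (0.0532 to 0.1801). DESeq2 gave PLVAP no adjusted p, and with the adhesion genes among the clustering genes it was not tested. JAM2 was highest in EC2-like cells at 889 ± 221 CPM, and CDH5 and ESAM in capillary EC-like cells at 1072 ± 189 and 1429 ± 363 CPM.

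Genes that answer to NF-kB, the factor that drives ICAM1, VCAM1 and SELE after cytokines, had 7 of 8 members tested in endothelial-like cells. None passed, all 7 fold changes were positive and their median was 0.54. The summed level of the list overlapped, at 1373, 1051 and 681 CPM in control 1, 2 and 3, against 1125, 1326 and 1549 CPM in asthma 8, 10 and 11. In EC2-like cells 4 were tested, 2 positive and 2 negative. Of the 9 chemokines that ACKR1 binds, 2 had enough UMIs to be tested in endothelial-like cells and neither passed. Integrin activation genes had 4 of 8 tested and 0 passed.

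Stress genes that rise during tissue dissociation were also measured. In endothelial-like cells 12 were tested, NR4A1 fell (log2 fold change -1.93, edgeR adjusted p = 0.0227), 11 of the 12 had a negative fold change and their median was -0.87. NR4A1 lost its call without control 1, asthma 8, asthma 10 or asthma 11 (edgeR adjusted p = 0.0539 to 0.0683). The summed level of the list overlapped there, at 12053, 4439 and 6945 CPM in control 1, 2 and 3, against 3989, 6787 and 5274 CPM in asthma 8, 10 and 11. In EC2-like cells all 10 tested were negative, none passed, and their summed level was 14440, 5433 and 7617 CPM in control 1, 2 and 3, against 3156, 4796 and 4636 CPM in asthma 8, 10 and 11. Every asthma library lay below every control library there, and control 1 was the highest. Their part in the levels of the adhesion genes was not tested.

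In whole libraries, where fewer cells of a type and less RNA per cell cannot be told apart, ACKR1 stood at 1.53, 2.44 and 1.38 CPM in control 1, 2 and 3, against 8.52, 2.94 and 18.4 CPM in asthma 8, 10 and 11 (log2 fold change 2.301, SE 0.645, edgeR adjusted p = 0.2504), and without asthma 11 the log2 fold change was 1.51. ICAM1 was 37.2, 36.2 and 42.8 CPM in control 1, 2 and 3, against 76.4, 63.1 and 51.4 CPM in asthma 8, 10 and 11 (log2 fold change 0.57, SE 0.154, edgeR adjusted p = 0.239). These 2 genes and PECAM1 had all asthma libraries above all control libraries, 3 of 8 beside 15.9% of all genes. None of the 8 had them all below, as 3.11% of all genes had, and 0 of 8 passed where 0.0839% of all genes did. DESeq2 called ACKR1 (adjusted p = 0.00990) and ICAM1 (adjusted p = 0.0447) there. VCAM1 was 9.59, 8.42 and 10.0 CPM in control 1, 2 and 3, against 44.8, 27.9 and 7.01 CPM in asthma 8, 10 and 11, where asthma 11 was the lowest library (log2 fold change 1.36, edgeR adjusted p = 0.398). SELP, which fell in endothelial-like cells, had overlapping groups here, at 4.23, 6.30 and 13.8 CPM in control 1, 2 and 3, against 11.6, 9.61 and 8.94 CPM in asthma 8, 10 and 11.

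The genes whose pattern was most like each of the 9 were ranked by Pearson correlation of log2(mean CPM + 10) over 23 cell types, among 12043 genes. The cell types share libraries and differ in depth, so these are descriptions. ACKR1 was most like HTR2B (r = 0.967), CPAMD8 (0.967) and TAC1 (0.962), and SELP was most like FAM167B (0.916), MMRN2 (0.886) and BMX (0.884). VCAM1 was most like APOA1 (0.963), PTGIS (0.961) and SULF1 (0.937), PECAM1 like USHBP1 (0.892), CLEC1A (0.849) and MLKL (0.845), and ICAM2 like TPST2 (0.863), HLA-E (0.847) and FLI1 (0.830). For the integrins the order was SASH3 (0.960), DOCK2 (0.958) and ARPC2 (0.952) for ITGB2, and TDG (0.821), CSK (0.806) and FERMT3 (0.796) for ITGA4. ICAM1 was most like ICAM4 (0.854), its neighbour in the RefSeq annotation of this monkey (assembly T2T-MFA8v1.1, used for gene order only), then ABCC3 (0.851) and ALS2CL (0.841). SELE, with its 35 UMIs, was most like SOX17 (0.995), JAG2 (0.977) and FCN3 (0.976).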

How the data were processed

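Reads had been mapped by the authors to macFas6 with Cell Ranger, and the deposited values are raw UMI counts for each gene in each barcode. The submitters' processing notes name Cell Ranger 2.1.1 and the matrix headers 4.0.0, and the study's methods name a version that differs from both. The thresholds of the study's methods were applied to the 35133 barcodes (genes over 500 and under 5000, UMIs of 500 or more, a mitochondrial share of 25% or less), and 24235 cells remained. Counts were scaled to 10000 per cell, logged, reduced from 2000 variable genes to 10 principal components and grouped by Leiden clustering (20 neighbours, resolution 0.8) with scanpy (1.11.5, leidenalg 0.10.2, Python 3.11.15). Clusters were named from marker lists, and sub-clusters with markers of several classes (mixed) were left out of the named types. Doublets were kept, and an alternative left out the 1141 cells with the highest Scrublet scores, because the caller's own threshold marked only 10.

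UMI counts were summed per library and cell type, with at least 10 cells per library, and tested with edgeR 4.0.16 (quasi-likelihood test, TMM, filterByExpr, R 4.3.3). A gene passed, or was called, with a Benjamini-Hochberg adjusted p under 0.05 over all genes tested and an absolute log2 fold change over 0.25. Shares were compared with exact permutation tests over 20 assignments. DESeq2 1.42.0 was an alternative. On simulated data with 200 changed genes, 83.5% of changes of 2 on the log2 scale and 7.5% of changes of 1 were recovered in endothelial-like cells, 81.0% and 11.5% in EC2-like cells, 69.0% and 0% in whole libraries, and 89.0% and 35.5% in T and NK-like cells.

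Not every pair of an adhesion gene and a cell type with at least 30 UMIs is described. Those left out include ICAM1 in dendritic-like cells (595 UMIs) and ITGA4 in macrophage-like cells (2200 UMIs). SELE is described from fewer UMIs. Per related list up to 5 called genes, or otherwise up to 2 genes with the smallest p, are named. For each adhesion gene 3 like genes are given. Members, lists and tests were chosen with earlier results of these data known. Comparisons of sub-clusters were added after seeing the data. The limit that a count of 0 allows is 3 counts. Limits and intervals cover counting error only, and p-values rest on differences between 3 monkeys a group. In edgeR and DESeq2 each gene's estimate of spread is also drawn towards that of other genes. Values of 1 further gene on the related lists are not reported here.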

Additional observations from a re-analysis of the deposited data

Results flagged for a closer look

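Some signals lay outside the cells of the named types, in barcodes left out or in sub-clusters that entered only the whole-library sums. Of the 8 adhesion genes with at least 30 UMIs there, 2 had every asthma library above every control library in the barcodes left out, beside 8.47% of all such genes, and 1 of 8 in those sub-clusters, beside 11.6%. In barcodes that failed quality control SELP stood at 3.81 CPM in the lowest asthma library, above the 1.86 CPM of the highest control library. By library it was 1.82, 1.86 and 1.04 CPM in control 1, 2 and 3 and 3.81, 12.6 and 9.65 CPM in asthma 8, 10 and 11, from 224 UMIs in all. ACKR1 in the same barcodes was at 0.875 CPM in the lowest asthma library and 0.829 CPM in the highest control library, a gap that rests on 8 and 5 UMIs. In the sub-clusters with markers of several classes PECAM1 was at 270.6 CPM in the lowest asthma library, above the 228.6 CPM of the highest control library.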

How the results depend on the processing

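Over 309 repeats of 22 fold changes under other settings, 275 kept their direction and side of the threshold, 15 were reversed, 15 newly passed and 4 no longer passed. In endothelial-like cells ICAM1 turned to -0.0015 without the cells of highest doublet score and ITGB2 to -0.21 with the adhesion genes clustered on. With each library left out in turn, ITGB2 there ran from -0.33 to 0.70, below 0 without control 1 (-0.10) and asthma 10, and ITGA4 from -0.21, without control 3, to 1.67. In EC2-like cells SELP turned to 0.18 at a mitochondrial maximum of 10%, and VCAM1 to 0.10 at that maximum, 0.12 with the adhesion genes clustered on and 0.016 without TMM factors. With each library left out, SELP ran there from -0.42 to 0.035 (above 0 without control 2), VCAM1 from -0.37 to 0.24 (above 0 without control 2 or asthma 11) and PECAM1 from -0.037 (without control 3) to 0.12. VCAM1 in mesothelial-like cells ran from -0.49 to 0.18, above 0 without control 2 or asthma 11. The causes were not tested.

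The change of SELP in endothelial-like cells ran from -1.77 to -1.20 with each library left out and lost its call in 4 of the 6 cases. Genes called in endothelial-like cells went from 464 to 1038 with no filter on low counts and to between 34 and 442 with each library left out, and adhesion genes called there from 1 to 4 with no filter (SELP, ICAM2, VCAM1 and ACKR1) and 0 to 2 with each library left out. Related genes called there went from 3 to 5 at the mitochondrial maximum of 10% and without the cells of highest doublet score, 6 with no filter and without TMM factors, and 0 to 5 with each library left out. In EC2-like cells 3 genes called became 0 with at least 200 genes per cell, at a resolution of 1.6, without the cells of highest doublet score and without TMM factors, 1 with the adhesion genes clustered on, 14 by DESeq2, 159 with no filter and 0 to 5 with each library left out, and adhesion genes went from 0 to 1 with no filter (ACKR1). In whole libraries 12 genes became 7 with at least 200 genes per cell, 648 by DESeq2, 45 with no filter, 30 without TMM factors and 0 to 11 with each library left out, and adhesion genes went from 0 to 2 by DESeq2. The 6 genes of the difference between subtypes became 28 with no filter and 0 to 12 with each library left out. The difference in endothelial share, 5.04 percentage points, was 7.66 when T and NK-like cells were left out of the denominator (exact permutation p = 0.1) and 4.07 to 5.80 with each library left out. The settings without TMM factors were chosen after seeing the data.

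No paired analysis was possible because the replicate numbers of the control group (1, 2 and 3) and the asthma group (8, 10 and 11) share none. The main limits are 3 monkeys a group, 9 to 13 capillary EC-like cells in each control library, which leave most zeros there undecided, 15 to 82 EC2-like cells per control library, and cell names rebuilt from markers.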
